A study of Mus musculus with 6 samples.

Results

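A set of 10 genes of vitamin D metabolism and of phosphate and calcium handling was followed in the kidneys of mice labelled as having a knockout of Pck1 directed to the proximal tubule. They are Cyp24a1, Cyp27b1, Vdr, Kl, Pth1r, Slc34a1, Slc34a3, Slc20a2, S100g and Calb1. They were chosen by name and read from the array probes whose RefSeq accession belongs to them, 13 probes in all. All 10 genes were well above background on all 6 arrays and were among the 17138 genes tested. Of the 10, Cyp24a1 was lower in the knockout arrays and passed the test. For each of Calb1 and Slc34a3 the mean was lower and for Pth1r higher without passing, and 5 members changed by less than 0.05 on the log2 scale.

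RNA of whole kidney from C57BL/6J mice killed at 32 weeks was hybridised to 1-colour Agilent arrays, 3 labelled WT and 3 labelled Pck1-CKO. Pck1-CKO mice are Pck1 flox/flox with 1 γGT-Cre transgene, which directs the deletion to the renal proximal tubule, so both floxed copies and the Cre are present in this group. The controls, called WT, were littermates of the same age and sex. The breeding yielded controls with 1 or both alleles floxed and no Cre, and controls with 1 floxed allele (flox/+) and γGT-Cre (tg/+). The sources used here do not give which of these was on each array. Whether the 3 samples of a group are 3 animals is not stated in the labels, and the p-values therefore reflect sample-to-sample spread, which may be technical.

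The kidney makes the active hormone of vitamin D. In the proximal tubule the enzyme 1α-hydroxylase, encoded by Cyp27b1, turns the circulating precursor into calcitriol, and the 24-hydroxylase, encoded by Cyp24a1, starts the breakdown of both. Calcitriol acts through the vitamin D receptor, and Cyp24a1 is among the genes it induces most strongly. Parathyroid hormone raises Cyp27b1 and lowers Cyp24a1 in the proximal tubule, whereas FGF23 acting through Klotho does the reverse, and both hormones withdraw phosphate transporters from the brush border. Calcium is reclaimed under hormonal control in the distal convoluted and connecting tubule, where calbindins carry it across the cell.

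Values below are log2 processed signals minus the 75th percentile of the array, so 0 marks a probe at that percentile. Levels of different genes are not compared, since probes differ in brightness. The Pck1 signal itself did not fall in the group labelled Pck1-CKO, with 6.29, 6.32 and 5.63 on the WT arrays, against 6.44, 6.60 and 6.90 on the Pck1-CKO arrays (limma adjusted p = 0.152). The sources used here do not place its single probe inside or outside the floxed segment, so this signal cannot check the labels, and directions are those of the libraries labelled Pck1-CKO. Over all genes 743 were higher and 633 lower at a limma adjusted p under 0.05, which is 8.03% of the genes tested (4.34% higher and 3.69% lower). With each array centred on its median instead, the counts were 2434 higher and 559 lower. The counts depended on which array was left out. Leaving out WT 1 gave 39 higher and 28 lower, leaving out WT 2 gave 29 and 15, leaving out Pck1-CKO 1 gave 14 and 9, and leaving out Pck1-CKO 2 gave 17 and 9. Leaving out WT 3 gave 849 and 628, and leaving out Pck1-CKO 3 gave 745 and 837. All WT arrays lay in row 1 of the slide and all Pck1-CKO arrays in row 2, so row and genotype cannot be told apart. Same-numbered arrays of the groups shared a slide column.

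Cyp24a1, the enzyme gene of calcitriol breakdown, was lower in Pck1-CKO. Its log2 signal stood at 3.18, 3.24 and 3.91 for WT and at 2.40, 2.51 and 2.06 for Pck1-CKO. The lowest WT array lay above the highest Pck1-CKO array, so the groups did not overlap. In unscaled processed signal the WT arrays gave 4803, 5293 and 8739 units, against 2939, 3300 and 2428 units for Pck1-CKO. The estimated change was -1.12 ± 0.23 on the log2 scale (SE, n = 3 per group), with a 95% interval from -1.68 to -0.56 and limma adjusted p = 0.0444. That is a level 2.18-fold higher in WT. The adjusted p lay close to the threshold of 0.05, and Cyp24a1 ranked 1134 of 17138 genes by p. WT 3 was higher than the other WT arrays, and without it the log2 change was -0.89 with adjusted p = 0.0414. Leaving out any other array kept the direction and gave adjusted p between 0.0726 (without Pck1-CKO 3) and 0.125 (without Pck1-CKO 2), being 0.102 when WT 1, 0.105 when WT 2 and 0.112 when Pck1-CKO 1 was left out. Without the filter on dim probes the same change had adjusted p = 0.0953, with more genes in both the variance fit and the adjustment. In bulk tissue, fewer cells of a type and less RNA per cell cannot be told apart.

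Cyp27b1, the enzyme gene of calcitriol synthesis, varied more within groups (SD 0.50 in WT and 0.59 in Pck1-CKO) than between them. The log2 signal of Cyp27b1 was 0.64, 0.76 and 1.56 on the WT arrays, against 1.47, 1.80 and 0.66 on the Pck1-CKO arrays. WT 3 sat among the high Pck1-CKO arrays and Pck1-CKO 3 among the low WT arrays. This gave a log2 change of 0.32 ± 0.37 (SE, n = 3 per group; limma adjusted p = 0.588), and its 95% interval from -0.60 to 1.25 leaves room for a change of over 1 log2 unit upward. On leaving out 1 array the change of Cyp27b1 ran from 0.079 (without Pck1-CKO 2) to 0.65 (without Pck1-CKO 3), and array weights gave 0.81 (limma adjusted p = 0.0644). Whether the changes of Cyp24a1 and Cyp27b1 differ was not tested.

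**Figure D1:**
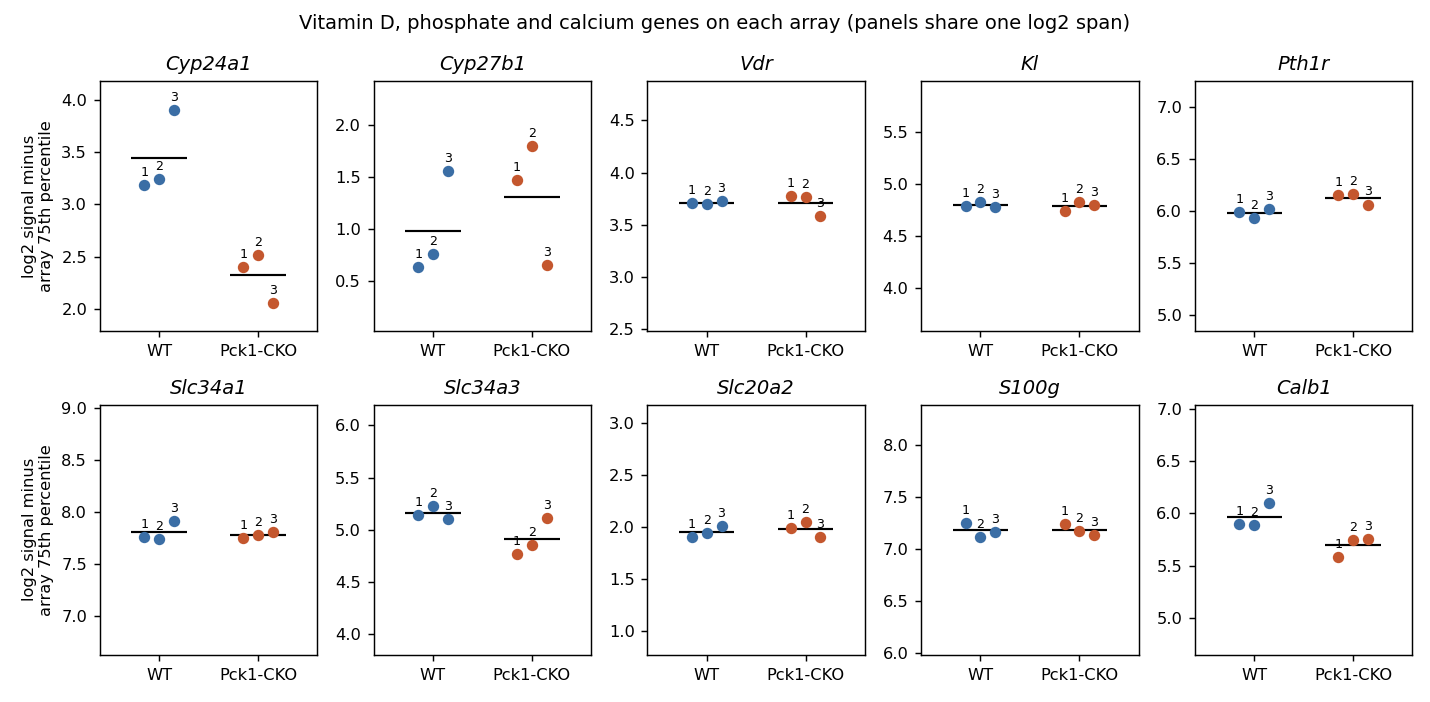
Log2 signal of the 10 genes on each array, with each dot 1 array numbered by its sample, the bar the group mean and every panel spanning the same log2 range. Cyp24a1 separates WT (3.18 to 3.91) from Pck1-CKO (2.06 to 2.51), Cyp27b1 overlaps widely, and Vdr, Kl, Slc34a1, Slc20a2 and S100g have group means within 0.05 of each other.

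The groups overlapped for Vdr, the vitamin D receptor gene. The log2 signal of Vdr stood at 3.71, 3.70 and 3.73 for WT and at 3.77, 3.76 and 3.58 for Pck1-CKO, and Pck1-CKO 3 was the lowest of the 6. This gave a log2 change of -0.0056 ± 0.063 (SE, n = 3 per group; limma adjusted p = 0.962), with a 95% interval from -0.16 to 0.15.

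Among the hormone receptors, Kl, which encodes the FGF23 co-receptor Klotho, had a log2 signal of 4.79, 4.83 and 4.78 for WT, against 4.75, 4.83 and 4.80 for Pck1-CKO. The groups overlapped, and the 95% interval of the log2 change ran from -0.11 to 0.096 (limma adjusted p = 0.928). Pth1r encodes the receptor of parathyroid hormone. Its log2 signal was 5.99, 5.93 and 6.02 on the WT arrays, against 6.15, 6.17 and 6.06 on the Pck1-CKO arrays. Each Pck1-CKO array lay above each WT array, by a small margin. The log2 change of Pth1r was 0.15 ± 0.048 (SE, n = 3 per group; limma adjusted p = 0.105), which did not pass, and it was above 0 under all 17 alternative settings. With median centring it was 0.22 (adjusted p = 0.0418) and with array weights 0.20 (adjusted p = 0.0158), both past the threshold. Pth1r missed the threshold on leaving out any 1 array, at adjusted p from 0.0812 to 0.294.

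Phosphate is taken up from the filtrate by sodium-coupled transporters of the brush border. Slc34a1 encodes NaPi-IIa, the main one in mouse. The log2 signal of Slc34a1 stood at 7.76, 7.74 and 7.92 for WT and at 7.75, 7.78 and 7.81 for Pck1-CKO, with all Pck1-CKO arrays inside the range of WT. This gave a log2 change of -0.025 ± 0.059 (SE, n = 3 per group; limma adjusted p = 0.8), with a 95% interval from -0.17 to 0.12. A dimmer Slc34a1 probe gave a log2 change of -0.12 ± 0.068 (adjusted p = 0.308 over all tested probes).

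Slc34a3 encodes NaPi-IIc, a relative of NaPi-IIa in the same membrane. The log2 signal of Slc34a3 was 5.14, 5.23 and 5.10 on the WT arrays, against 4.77, 4.86 and 5.11 on the Pck1-CKO arrays. Pck1-CKO 1 and 2 lay below every WT array, while Pck1-CKO 3 lay within the WT range. This gave a log2 change of -0.25 ± 0.098 (SE, n = 3 per group; limma adjusted p = 0.156), which did not pass. Without Pck1-CKO 3 it was -0.35 with adjusted p = 0.0388. That array was the one within the WT range, so its removal favours a pass. Leaving out any other array gave an adjusted p for Slc34a3 between 0.177 and 0.353. A second, dimmer probe showed the same split among the Pck1-CKO arrays, with 1.90, 1.91 and 1.88 on the WT arrays, against 1.68, 1.77 and 2.05 on the Pck1-CKO arrays, and its log2 change was -0.067 ± 0.099 (adjusted p = 0.688 over all tested probes). Slc20a2 encodes PiT-2, a transporter of another family. Its log2 signal stood at 1.90, 1.95 and 2.01 for WT and at 1.99, 2.04 and 1.91 for Pck1-CKO, again overlapping, and the 95% interval of the log2 change ran from -0.10 to 0.16.

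S100g and Calb1 encode calcium-binding proteins of the distal tubule, calbindin-D9k in the case of S100g. The log2 signal of S100g was 7.25, 7.12 and 7.17 on the WT arrays, against 7.24, 7.17 and 7.14 on the Pck1-CKO arrays, and the 95% interval of the log2 change ran from -0.13 to 0.13 (limma adjusted p = 0.983). Calb1 encodes calbindin-D28k, and both of its probes were lower in Pck1-CKO. The brighter probe read 5.90, 5.89 and 6.10 on the WT arrays, against 5.58, 5.74 and 5.76 on the Pck1-CKO arrays. Its log2 change was -0.27 ± 0.082 (SE, n = 3 per group) and limma gave adjusted p = 0.095, which did not pass. The dimmer probe read 0.42, 0.36 and 0.49 on the WT arrays, against 0.0025, 0.038 and 0.066 on the Pck1-CKO arrays. Its log2 change was -0.39 ± 0.051 (SE, n = 3 per group) and limma gave adjusted p = 0.027 over the 25519 probes tested, which passed. In neither probe did the groups overlap. With the mean of both probes standing for Calb1, the log2 change was -0.33 and limma adjusted p = 0.044. With the brighter probe standing for it, Calb1 missed the threshold on leaving out any 1 array, at adjusted p from 0.113 to 0.208.

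**Figure D2:**
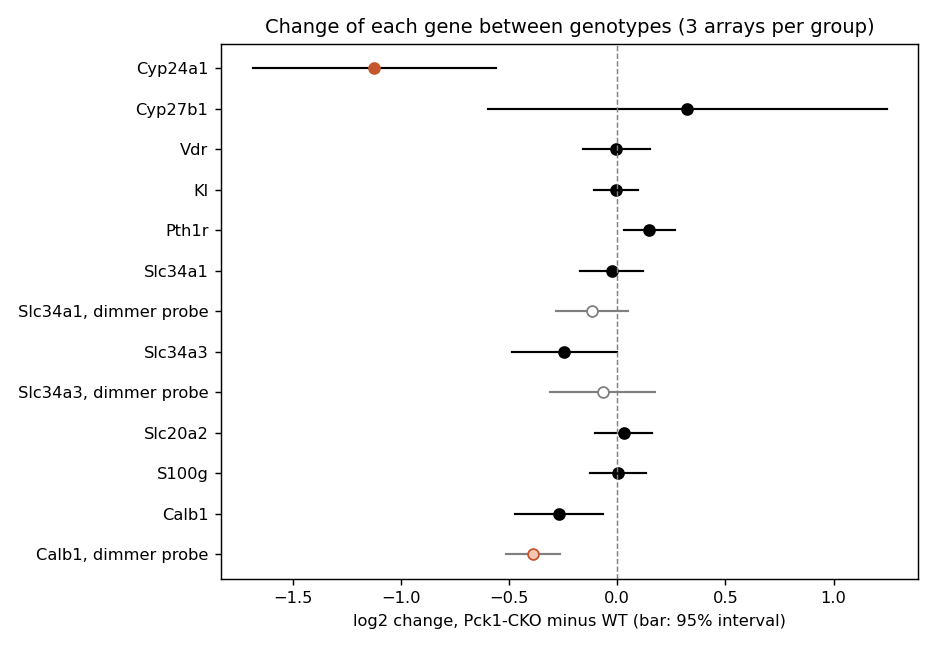
Log2 change of each gene (filled dots) and of the second, dimmer probe where the array has one (open or pale dots), with 95% intervals from 3 arrays per group and red for an adjusted p under 0.05. Cyp24a1 at -1.12 and the dimmer Calb1 probe at -0.39 passed, and the intervals of Vdr, Kl, Slc34a1, Slc20a2 and S100g lie around 0.

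In counts, 1 of 10 genes passed and was lower, against 3.69% of all tested genes. The groups did not overlap in 3 of 10 (Cyp24a1, Pth1r and Calb1), against 38.3% of all tested genes. An unadjusted p under 0.05 was reached by 4 of 10, against 31.2% of all tested genes. The last 2 shares are near the background, and none of the 3 counts is a result about the genes as a group.

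**Figure D3:**
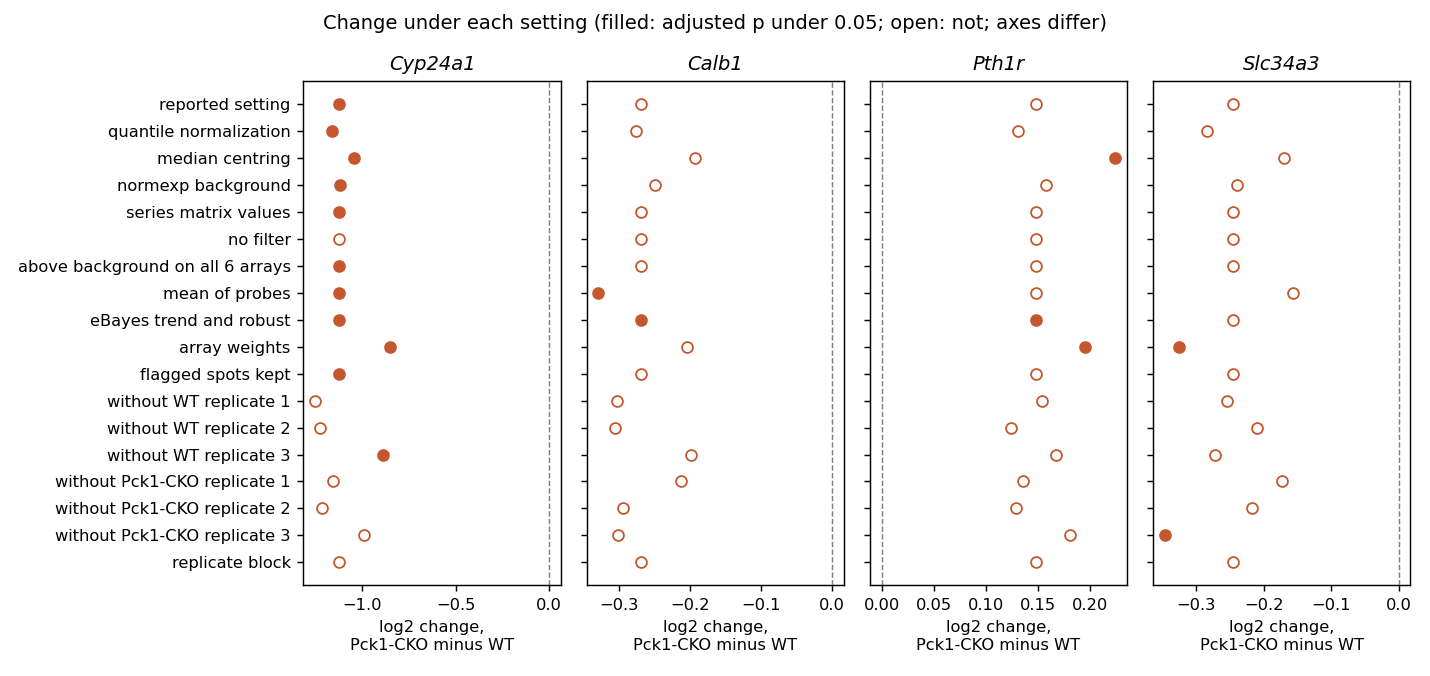
Log2 change of Cyp24a1, Calb1, Pth1r and Slc34a3 under the reported setting and 17 alternatives, filled where the adjusted p was under 0.05. The sign of each gene is the same in every row, with Cyp24a1 between -1.25 and -0.85, whereas whether the threshold was passed varies with the setting.

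Markers of the cells that hold these genes, and of tissue that could come along with a kidney, were read beside them. Of 25 proximal tubule markers 0 passed in limma (limma unadjusted p under 0.05: 5 upward, 1 downward), and their summed linear signal, in units of the 75th percentile, was 2564 to 2711 in WT and 2631 to 2753 in Pck1-CKO. Of 15 distal convoluted and connecting tubule markers 4 were lower and 1 higher, beside 3.69% and 4.34% of all tested genes (limma unadjusted p under 0.05: 1 upward, 7 downward). Their summed signal was 341.7 to 365.7 in WT and 315.4 to 350.3 in Pck1-CKO. Such a sum weighs bright probes most, and the brightest of these was Klk1 (mean log2 signal 7.77 in WT, log2 change -0.013). Without the genes of the calcium list, Calb1 included, 2 of the remaining 8 were lower and 1 higher, at 51.4 to 52.6 in WT and 47.9 to 50.7 in Pck1-CKO. The part of this marker level in the values of Calb1, Slc8a1 and Trpv5 was not tested. Of 16 adipose markers 9 were higher and 0 lower, beside 4.34% and 3.69% of all tested genes. At a limma unadjusted p under 0.05, 15 were upward and 0 downward. Their summed signal was 89.8 to 113.1 in WT and 213.0 to 267.9 in Pck1-CKO. The part of admixed fat in any value here was not tested. Of 6 tested blood markers 2 were higher (S100a8 and S100a9) and 1 lower (Slc4a1), beside the same shares of all tested genes. Slc4a1, with a log2 change of -0.875, was the only 1 of the 6 with a negative change. Whether its signal here comes from blood was not tested. At a limma unadjusted p under 0.05, 4 were upward and 1 downward. Hba-a1, Hbb-bt and Alas2 had log2 changes of 0.36, 0.21 and 0.41 without passing. The summed blood signal was 270.4 to 342.2 in WT and 335.1 to 423.8 in Pck1-CKO. Of the adrenal cortex list 6 of 9 were tested and 0 passed (limma unadjusted p under 0.05: 0 upward, 2 downward), and Cyp11a1, Cyp11b1 and Cyp11b2 were not well above background anywhere. Of the bone list 3 of 7 were tested and 0 passed (0 at an unadjusted p under 0.05), with Ibsp, Dmp1 and Sost not well above background on any array.

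Wider lists of each pathway were then read in the same fit. In the list of vitamin D metabolism and its receptor, all 19 genes were tested, 2 were lower and 0 higher, where 8.03% of all tested genes passed (limma unadjusted p under 0.05: 4 upward, 4 downward). The median log2 change was 0.015, against 0.0091 over all tested genes. The other gene that fell was Gc, which encodes the vitamin D-binding protein, the plasma carrier that the proximal tubule takes up from the filtrate. The signal of Gc stood at 3.95, 4.03 and 3.97 for WT and at 3.01, 3.11 and 3.46 for Pck1-CKO, with no overlap. The log2 change of Gc was -0.79 ± 0.12 (SE, n = 3 per group; limma adjusted p = 0.0294). Without WT 1, WT 2, Pck1-CKO 1 or Pck1-CKO 2 the adjusted p of Gc lay between 0.0865 and 0.117.

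In the list of FGF23 and Klotho signalling, 1 of 17 tested genes was higher and 1 lower, near the 4.34% and 3.69% of all tested genes, with a median log2 change of -0.028. Fgfr4, one of the FGF receptors that Klotho can partner, read 2.83, 2.85 and 2.90 on the WT arrays, against 3.20, 3.26 and 3.15 on the Pck1-CKO arrays. Its log2 change was 0.34 ± 0.047 (SE, n = 3 per group; limma adjusted p = 0.0254). A second Fgfr4 probe of like brightness gave a log2 change of 0.086 (adjusted p = 0.367 over all tested probes). Without Pck1-CKO 1 that second probe was the brighter one and stood for the gene, with a log2 change of 0.12 (adjusted p = 0.262). Etv5, a transcription factor gene switched on by FGF signals, read 2.64, 2.77 and 2.81 on the WT arrays, against 2.22, 2.33 and 2.46 on the Pck1-CKO arrays. Its log2 change was -0.41 ± 0.079 (SE, n = 3 per group; limma adjusted p = 0.0409). The adjusted p of Etv5 was 0.0324 without Pck1-CKO 3 and between 0.0673 and 0.14 without any other array.

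For signalling downstream of the parathyroid hormone receptor, none of 17 tested genes passed in limma (limma unadjusted p under 0.05: 3 upward, 0 downward). The median log2 change was 0.027. The lowest p was that of Gna11, which encodes a G protein alpha subunit coupled to calcium release, with a log2 change of 0.17 ± 0.039 (SE, n = 3 per group; limma adjusted p = 0.0574). In the phosphate list 1 of 17 tested genes was lower and 0 higher, near the 3.69% lower over all tested genes, with a median log2 change of 0.071. It was Enpp1, whose product makes pyrophosphate, an inhibitor of mineral deposition. Enpp1 read 0.78, 0.65 and 0.78 on the WT arrays, against 0.44, 0.48 and 0.45 on the Pck1-CKO arrays, a log2 change of -0.28 ± 0.051 (SE, n = 3 per group; limma adjusted p = 0.0376). A dimmer Enpp1 probe gave -0.056 (adjusted p = 0.422 over all tested probes), and with the mean of both the log2 change was -0.17 (adjusted p = 0.0793). Leaving out any 1 array gave an adjusted p for Enpp1 between 0.0572 and 0.131.

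In the calcium and magnesium list 2 of 25 tested genes were lower and 1 higher, where 8.03% of all tested genes passed. The median log2 change was -0.091, against 0.0091 over all tested genes. Slc8a1, the sodium-calcium exchanger that moves calcium out toward the blood, read 0.98, 0.96 and 0.88 on the WT arrays, against 0.40, 0.28 and 0.16 on the Pck1-CKO arrays. Its log2 change was -0.66 ± 0.071 (SE, n = 3 per group; limma adjusted p = 0.0159), and 2 dimmer Slc8a1 probes gave -1.04 and -0.39 without passing. Trpv5, the calcium channel of the luminal membrane, read -1.56, -1.48 and -1.39 on the WT arrays, against -1.86, -1.76 and -1.77 on the Pck1-CKO arrays. Its log2 change was -0.32 ± 0.059 (SE, n = 3 per group; limma adjusted p = 0.0377). Cldn16, a claudin of the paracellular calcium and magnesium path in the thick ascending limb, changed by 0.31 ± 0.06 on the log2 scale (adjusted p = 0.0408), reading -0.66, -0.55 and -0.60 on the WT arrays, against -0.39, -0.25 and -0.24 on the Pck1-CKO arrays. Without WT 3 the adjusted p of Trpv5 lay just under the threshold and rounds to it, and on leaving out any other array it ran from 0.0533 to 0.125. Cldn16 missed the threshold on leaving out any 1 array, at adjusted p from 0.063 to 0.146. Slc8a1 missed it without WT 1 (0.0694), WT 2 (0.074), Pck1-CKO 1 (0.0511) or Pck1-CKO 2 (0.0805).

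Without the filter on dim probes 6 of the genes named from these lists missed the threshold, at adjusted p = 0.0734 for Gc, 0.0704 for Fgfr4, 0.0924 for Etv5, 0.0884 for Enpp1, 0.0933 for Cldn16 and 0.0874 for Trpv5. With median centring Etv5 (0.0521), Enpp1 (0.057) and Trpv5 (0.0593) also missed it, as did Trpv5 after quantile normalization (0.0552) and Fgfr4 with the mean of its probes (0.0547).

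The last list holds genes described as induced through the vitamin D receptor. Of 16 tested, 3 were lower and 0 higher, beside 3.69% lower and 4.34% higher over all tested genes. A negative change was seen in 12, and in 47.8% of all tested genes. The median log2 change was -0.12, against 0.0091 over all. The 3 were Cyp24a1, Trpv5 and Abcb1a, the last encoding the drug efflux pump P-glycoprotein. Abcb1a read -1.51, -1.52 and -1.42 on the WT arrays, against -2.44, -2.37 and -2.15 on the Pck1-CKO arrays, a log2 change of -0.84 ± 0.085 (SE, n = 3 per group; limma adjusted p = 0.0152). Calb1, Slc34a3, Kl and S100g are also in this list and are described above. The list shares genes with the others, so its counts are not a separate result. Cyp24a1 is also in the vitamin D list, and Trpv5 and Calb1 are in the calcium list. Trpv5 and Calb1 are also distal convoluted and connecting tubule markers, of which 4 of 15 were lower. Without WT 1, WT 2, Pck1-CKO 1 or Pck1-CKO 2 this list, like the other 5, had 0 genes past the threshold in limma.

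**Figure D4:**
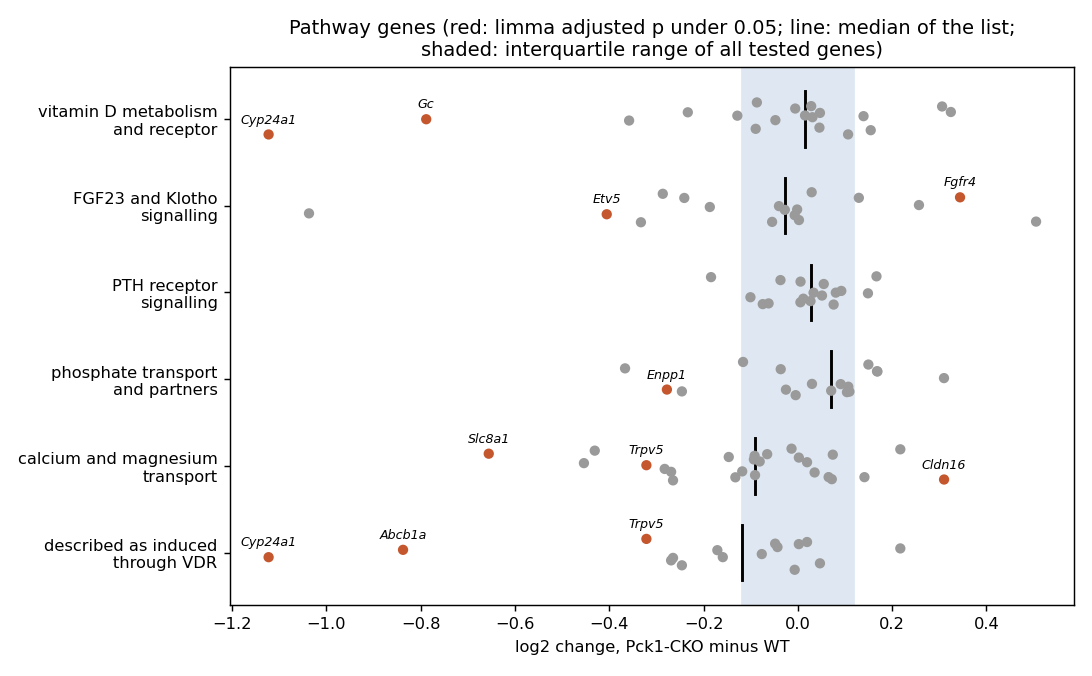
Log2 change of every tested gene of the 6 pathway lists, red where limma's adjusted p was under 0.05, with the median of each list as a line and the interquartile range of all tested genes shaded. The medians run from -0.12 (described as induced through VDR) to 0.071 (phosphate transport), and Cyp24a1 lies farthest to the left.

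Vitamin D response elements are usually a pair of direct repeats with a spacer of 3 bases. RefSeq promoters (GRCm38.p6) were at hand for 7 of the 10 genes, 9 promoters in all, and Cyp24a1, Calb1 and Slc20a2 were named only. In the 250 bases before each start, the direct repeat (DR3) was searched on both strands. It was found in 0 of the 9 promoters, against 0.222% of 32851 promoters in the table. Single hexamers of the repeat were searched on either strand as AGGTCA, the variant AGTTCA, the variant GGGTCA, the variant GGTTCA and the variant AGGTGA, and at least 1 of them was found in 6 of the 9 and in 46.7% of all. The promoters of 3 genes are shown in lower case with these hexamers in capitals, because Cyp27b1 is the enzyme set against Cyp24a1, and Slc34a3 and S100g are described as induced through the receptor.
Cyp27b1 (chr10:127047996-127048245, plus strand): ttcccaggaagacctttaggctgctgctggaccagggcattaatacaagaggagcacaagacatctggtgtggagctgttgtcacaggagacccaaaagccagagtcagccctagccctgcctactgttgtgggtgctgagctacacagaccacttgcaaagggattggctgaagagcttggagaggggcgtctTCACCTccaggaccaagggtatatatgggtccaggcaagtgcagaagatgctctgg
Slc34a3 (chr2:25234235-25234484, minus strand): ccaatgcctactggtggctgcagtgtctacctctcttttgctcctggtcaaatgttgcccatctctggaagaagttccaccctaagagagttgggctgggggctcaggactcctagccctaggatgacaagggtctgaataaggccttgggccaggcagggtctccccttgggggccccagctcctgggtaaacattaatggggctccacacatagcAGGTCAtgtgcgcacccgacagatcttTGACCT
S100g (chrX:162964600-162964849, minus strand): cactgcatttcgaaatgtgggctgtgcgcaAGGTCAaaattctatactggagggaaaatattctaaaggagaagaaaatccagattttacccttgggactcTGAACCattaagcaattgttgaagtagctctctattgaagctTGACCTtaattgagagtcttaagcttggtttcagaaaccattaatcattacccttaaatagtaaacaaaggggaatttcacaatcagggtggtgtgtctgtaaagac
Cyp27b1 holds 1 of these hexamers, Slc34a3 holds 2 and S100g holds 3. A match is a description of letters, and no match says only that they are not in this window.

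Patterns over the 6 arrays were compared by Euclidean distance of mean-centred log2 signal, leaving out genes with clone or predicted-gene names. Nearest to Cyp24a1 were Pdia2 (distance 0.358), Slc51a (0.405) and Rab6b (0.415), where the length of the Cyp24a1 pattern itself was 1.52. Pdia2 encodes a protein disulphide isomerase, Slc51a a subunit of an organic solute and bile acid transporter, and Rab6b a small GTPase of vesicle traffic. Slc51a read 4.43, 4.40 and 4.83 on the WT arrays, against 3.59, 3.66 and 3.54 on the Pck1-CKO arrays, with WT 3 the highest as for Cyp24a1. The log2 change was -0.95 ± 0.13 for Slc51a, -1.29 ± 0.12 for Rab6b and -0.92 ± 0.21 for Pdia2 (SE, n = 3 per group). These genes were picked for their likeness to Cyp24a1 over the same arrays, so their lower level in Pck1-CKO and the high WT 3 restate that choice and are given with no test.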

How the data were processed

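Total RNA from 6 whole kidney samples was labelled with Cy3, per the labels' protocols. The deposited scanner files come from Agilent Feature Extraction 10.7.1.1, per the submitters' processing notes, and give intensity values on a linear scale. Background subtraction and detrending had been applied to the processed signals, per the file headers. In the deposited series matrix each value is a ratio equal to the processed signal over 1 factor per array (within 1 percent for at least 99.95% of probes above a ratio of 1), with column medians of 0.105, 0.104 and 0.103 (WT) and 0.1, 0.098 and 0.099 (Pck1-CKO).

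Log2 processed signals, without the 46 to 94 spots per array flagged as outliers, were averaged per probe and the 75th percentile of each array was subtracted (0 spots were saturated). Between 37120 and 38710 of 56605 probes lay well above background on an array. The number of arrays limits the precision. Probes were named through RefSeq accessions from a table of GRCm38.p6: 34675 had 1 symbol and 21930 had none, for 23785 symbols. Probes well above background on at least 3 arrays were kept, and the brightest probe measured on all arrays represented its gene. limma 3.58.1 in R 4.3.3 (lmFit, eBayes, 2-sided) was fitted over 17138 genes with Benjamini-Hochberg adjustment at 0.05. The fit was also run on simulated data with independent noise and no effect shared within an array. That run does not bear on how the calls shift when an array is left out. Errors are standard errors of that fit.

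The members, the 6 pathway lists (112 genes, 101 tested) and the marker lists were chosen with earlier results of these data known. Named genes are the members, Pck1, up to 3 genes per direction of each pathway list that passed (or the 1 with the lowest p), and the 3 genes nearest in pattern to a member that passed. Clone and predicted-gene names were left out of the last choice. The marker list without calcium genes was added after seeing the data. One further marker list is not reported here. Alternatives covered normalization, background, source, filter, probe, variance model, weights, flags, left-out arrays and a replicate block. Slide and scan were the same for all arrays and could not be blocked.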

Additional observations from a re-analysis of the deposited data

How the results depend on the processing

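The log2 changes of Cyp24a1, Cyp27b1, Pth1r, Slc34a3 and Calb1 kept their direction under all 17 alternatives, and the calls did not. Cyp24a1 passed the threshold under 10 of 17, with adjusted p from 0.0126 to 0.125. It did not pass without a filter on dim probes, at -1.12 (adjusted p = 0.0953), where more genes entered the variance fit and the adjustment. On leaving out 1 array its log2 change ran from -1.25 to -0.89. Pth1r passed with median centring (0.22), the trended and robust variance model (0.15) and array weights (0.20). Calb1 passed with the mean of its probes (-0.33) and the trended and robust model (-0.27). Slc34a3 passed with array weights (-0.33), and ran from -0.35 to -0.17 on leaving out 1 array.

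Genes with changes near 0 turned sign without passing. With median centring the log2 changes were 0.070 for Vdr, 0.069 for Kl and 0.050 for Slc34a1. With array weights they were 0.041 for Vdr, 0.00051 for Kl and 0.013 for Slc34a1. With normexp Vdr was at 0.0017, and after quantile normalization Slc20a2 was at -0.0078. On leaving out 1 array the ranges were -0.040 to 0.057 for Vdr, -0.027 to 0.017 for Kl, -0.057 to 0.030 for Slc34a1, -0.00085 to 0.067 for Slc20a2 and -0.027 to 0.037 for S100g.

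Over all genes 2434 were higher with median centring, 61 higher and 81 lower without the filter, 1682 and 1148 with the trended and robust model, 3285 and 2614 with array weights, and 14 to 849 higher and 9 to 837 lower on leaving out 1 array. In the vitamin D list the genes past the threshold numbered 6 with median centring, 0 without the filter, 4 with the trended and robust model, 7 with array weights and 0 to 3 on leaving out 1 array. In the FGF23 list they numbered 5 with normexp, 0 without the filter, 1 with the mean of probes, 5 with the trended and robust model, 8 with array weights and 0 to 4 on leaving out 1 array. In the parathyroid hormone list they numbered 3 with median centring, 2 with the trended and robust model and 3 with array weights. In the phosphate list they numbered 2 with normexp, 0 without the filter, 0 with the mean of probes, 6 with array weights and 0 to 2 on leaving out 1 array. In the calcium list they numbered 1 without the filter, 5 with the mean of probes, 7 with the trended and robust model, 7 with array weights and 0 to 4 on leaving out 1 array. In the list of genes induced through the receptor they numbered 1 without the filter, 5 with the trended and robust model, 7 with array weights and 0 to 4 on leaving out 1 array. Removing the filter added genes both to the variance fit and to the adjustment, and the part of each was not tested. For the other settings the cause was not tested.

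Same-numbered arrays of the 2 groups shared a slide column, so the sample number also stands for the column. Deviations from the group means of same-numbered arrays correlated at -0.00029, -0.115 and -0.022 over 17138 genes. Other pairs of arrays were not set beside these, so they cannot settle whether the column paired the arrays. With the sample number as a replicate block, Cyp24a1 was at -1.12 (adjusted p = 0.116), 3 genes were higher and 1 lower over all genes, and each of the 6 lists had 0 genes past the threshold.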

Other observations

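Within each group the arrays stood in the same order for Cyp24a1 and Cyp27b1. WT 3 was the highest and WT 1 the lowest of the WT arrays for both genes, and Pck1-CKO 2 was the highest and Pck1-CKO 3 the lowest of the knockout arrays for both. The log2 signal of Cyp24a1 minus that of Cyp27b1 on the same array was 2.54, 2.48 and 2.35 on the WT arrays, against 0.92, 0.71 and 1.40 on the Pck1-CKO arrays. Its mean was 2.46 ± 0.098 (SD, n = 3) in WT and 1.01 ± 0.35 (SD, n = 3) in Pck1-CKO, a difference of -1.45 on the log2 scale with no overlap between groups. This quantity was chosen after the values were seen, so it is given without a test, and since probes differ in brightness only its difference between groups can be read.

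Cyp24a1 lies on chromosome 2, as Pck1 does, with 18 protein-coding genes between them in the RefSeq table. Of these, 12 were tested with limma, and 0 were lower and 1 higher at an adjusted p under 0.05, beside 3.69% and 4.34% of all tested genes. Without adjustment 1 was lower and 1 higher, where 31.2% of all tested genes had a limma p under 0.05. With 12 genes these counts are too small to read. Whether position on the chromosome bears on Cyp24a1 was not tested.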
